A study of Mus musculus with 50 samples.

Results

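The Gnas locus on mouse chromosome 2 was described from the counts on both of its strands: at Gnas, on the plus strand, and at AF085738, a gene annotated on the minus strand over the downstream Gnas exons. These are 2 of the 37310 genes in the count tables, taken by their identifiers, ENSMUSG00000027523.12 for Gnas and ENSMUSG00000090625.1 for AF085738, and both passed the filter on low counts. The locus was chosen with earlier results of the same tables in view, in which AF085738 had lower counts in the knockout lines, so the levels at both genes are given as a description with no test. RNA sequencing libraries came from total RNA of J1, mouse embryonic stem (ES) cells of strain 129S4/SvJae, grown untreated on gelatin with serum and the cytokine LIF. Wild type J1 cells had 2 libraries, and so did each of the NSD1-/- lines KO1 and KO2, which lack the H3K36 dimethyltransferase NSD1. How the lines were made, whether each is a single clone, and whether a group's libraries are from separate cultures are not given in the sources used here, so every p-value measures only the spread between libraries, which may be technical. The series has 50 samples, of which 44 are not analysed here.

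Gnas encodes the alpha subunit of the stimulatory G protein, Gs-alpha, which passes the signal of hormone receptors to adenylate cyclase and so raises cyclic AMP. The locus is imprinted and has several promoters whose transcripts splice onto shared downstream exons. The Nesp transcript comes from the maternal allele, and the transcripts for XL-alpha-s, from exon 1A and of the antisense RNA Nespas come from the paternal allele. Gs-alpha itself is made from both alleles in most tissues and mainly from the maternal one in a few.

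On mm9, Gnas spans chr2:174109821-174172245 with 11186 exon bases in 19 merged exon blocks. Its 22 annotated transcripts start in 7 of these blocks. AF085738 spans chr2:174155820-174172213 and has 1 annotated transcript of 13 exons and 1484 bases, classed as protein coding with 954 coding bases. Its lowest coordinate, the end of this minus-strand gene, lies 45999 bases into Gnas, past most of the alternative starts. Of its exon bases, 1469 (99.0%) lie opposite Gnas exons. Seen from the other strand, those bases make up 13.1% of the Gnas exons. Nespas spans chr2:174106738-174120937 on the minus strand, and 988 of its 3143 exon bases lie opposite the first 2 Gnas blocks. The remaining 78.0% of the Gnas exon bases face neither gene.

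**Figure D1:**
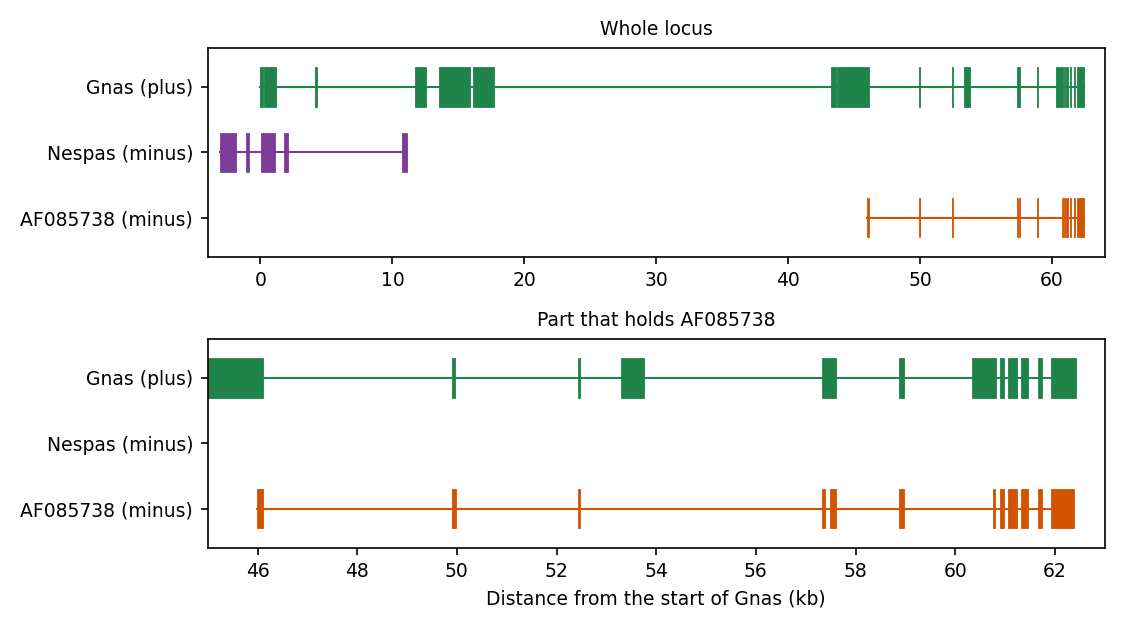
Annotated exons (boxes) of Gnas, Nespas and AF085738 by distance from the start of Gnas in kb, over the whole locus (top) and over the stretch that holds AF085738 (bottom). The AF085738 boxes stand opposite Gnas boxes from 45999 bases onward, and Nespas lies at the other end.

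The AF085738 model shares exon ends with Gnas as well as bases. Of its 13 exons, 4 have the same start and end as a Gnas exon, and 14 of its 24 boundaries between exon and intron fall on a Gnas exon start or end. Introns usually begin with GT and end with AG on the transcribed strand, so the letters show on which strand a splice pattern reads. None of the 12 AF085738 introns reads GT-AG on the minus strand, where the gene is annotated, and 7 read GT-AG on the plus strand, all 7 with the same start and end as a Gnas intron. Gnas itself has 25 of 28 distinct introns with GT-AG on the plus strand. Over all 22218 annotated introns of chromosome 2, 95.9% read GT-AG on their annotated strand and 0.113% on the other. The shortest AF085738 intron is 4 bases long.

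The exon at chr2:174171150-174171280, 131 bases, shows this in letters. It is a coding exon in 6 Gnas transcripts and lies whole within the AF085738 coding sequence on the other strand. It is printed on both strands from the reference genome NCBIM37 (mm9), 5' to 3', with 12 intron bases on each side (chr2:174171138-174171292), and capitals mark the 2 intron bases that touch the exon.
Gnas strand, plus: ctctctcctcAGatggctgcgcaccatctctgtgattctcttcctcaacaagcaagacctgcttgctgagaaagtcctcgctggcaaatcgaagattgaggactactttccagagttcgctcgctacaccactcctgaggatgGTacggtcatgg
AF085738 strand, minus: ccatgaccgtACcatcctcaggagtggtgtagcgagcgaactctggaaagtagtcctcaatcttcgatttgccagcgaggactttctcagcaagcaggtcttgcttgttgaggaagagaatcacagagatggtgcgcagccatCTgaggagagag
The plus strand has AG before the exon and GT after it, whereas the minus strand has AC and CT in those places.

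Counts at a gene were read as coming from the other strand. The tables were counted with a strand setting of 1, and genes abundant in every cell had few counts (Actb 104 to 144 per library, and Pou5f1, an ES cell gene, 14 to 23). Of all counts other than those of AY036118, an rRNA locus, 87.0% lay at the 4887 genes that have at least 50 exon bases facing a gene on the other strand. Read that way, AF085738 counts stand for transcripts in Gnas orientation, Gnas counts for transcripts that run against Gnas, and Nespas counts for transcripts in Nesp orientation. The reading rests on the few counts at Actb and Pou5f1 and on the 87.0% of counts at genes that face another gene. It was not tested in any other way, so each value is given under the name of the counted gene. The tables do not separate the Gnas promoters, because AF085738 faces exons downstream of most of the annotated starts.

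Libraries held 1150089 to 1285487 counts, 32.3% to 37.2% of them at AY036118, and 5034 genes passed the filter, with a median of 23 to 27 counts. At Nsd1 itself, wild type libraries had 21 and 25 counts, those of KO1 55 and 38, and those of KO2 27 and 21. As counts of the other strand, these do not check the knockout that the labels state. Of 20 fibroblast and feeder markers, 9 had no count of their own in any library (among them Col3a1, Col1a2, Thy1 and Dcn). Summed over the 3 counted ones that passed the filter the level was 65.1 to 90.5 CPM (counts relative to the effective library size), and none was called, that is had an adjusted p under 0.05 over all tested genes, in any comparison. Summed over the 6 genes facing such a marker, it was 1527 to 1594 CPM in wild type, 1399 to 1452 for KO1 and 1304 to 1342 for KO2. Most of that sum was Apol7d, facing Fn1, at means of 1181, 1240 and 1189 CPM in those groups and not called. Gm17329, facing Col1a1, went from 74.1 CPM to 2.87 and 2.19, and Syn3, facing Timp3, from 74.0 CPM to 14.4 and 10.2. Gm17329 held 4 and 3 counts in KO1 and 4 and 1 in KO2, so it passed the filter only through wild type. Gm13372, facing Col5a1, needed the wild type libraries to pass too, and the filter favours lower calls at such genes. By adjusted p in edgeR's quasi-likelihood test, 4 of these 6 were lower in the lines together, 3 in KO1 and 5 in KO2, where 3.89%, 6.34% and 3.97% of all tested genes were called lower. The 12 counted pluripotency genes that passed summed to 412 to 474 CPM, with none called against wild type and 1 lower in KO1 than in KO2. Over the 3 genes facing Tdh, Sall4 and Lin28a the sum was 4835 to 4922 CPM in wild type, 2527 to 2590 for KO1 and 5563 to 5611 for KO2, and of these 2 were lower in the lines and in KO1, while in KO2 1 was higher (5.01% of all tested genes) and 2 lower. Gm17232, facing Tdh, carried this sum, at means of 3956, 1749 and 4843 CPM, whereas Gm14261, facing Sall4, stood at 483, 495 and 405 CPM. Gm13061, facing Lin28a, stood at 439, 314 and 339 CPM, and it alone of the 3 was called lower in both lines. The part of these groups of genes in the levels at the Gnas locus was not tested.

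AF085738 was among the most highly counted genes of each library and stood lower in both knockout lines, more so in KO1. Wild type libraries held 4972 and 5087 counts at it, KO1 libraries 3392 and 3401, and KO2 libraries 4180 and 4550. Scaled, these were 4350 and 4325 CPM in wild type, 2742 and 2851 CPM in KO1, with 3725 and 3751 CPM in KO2. The order was wild type, KO2, KO1, and no group overlapped another. Among all genes of a library it ranked 12 and 13 by counts in wild type, 24 and 22 in KO1, and 19 in both KO2 libraries.

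Group means at AF085738 were 4338 ± 18.1 CPM (SD, n = 2) in wild type, 2797 ± 77.0 for KO1 and 3738 ± 18.4 for KO2. In the fit over all 5034 genes the log2 fold change was -0.63 ± 0.05 (standard error) in KO1, a change of -35.5%, and -0.21 ± 0.05 in KO2, a change of -13.8%. Between the lines it was -0.42 ± 0.05 for KO1 against KO2. Values without overlap are common with 2 libraries a group: 26.4% of tested genes had both KO1 libraries below both wild type ones and 26.0% both KO2 libraries, and 10.1% had all 4 knockout libraries below wild type. The share called lower was 6.34% in KO1, 3.97% in KO2 and 3.89% in the lines together. Because the contrasts were known when the locus was chosen, nothing is read from these shares. In bulk RNA, fewer cells of a type and less RNA per cell cannot be told apart.

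**Figure D2:**
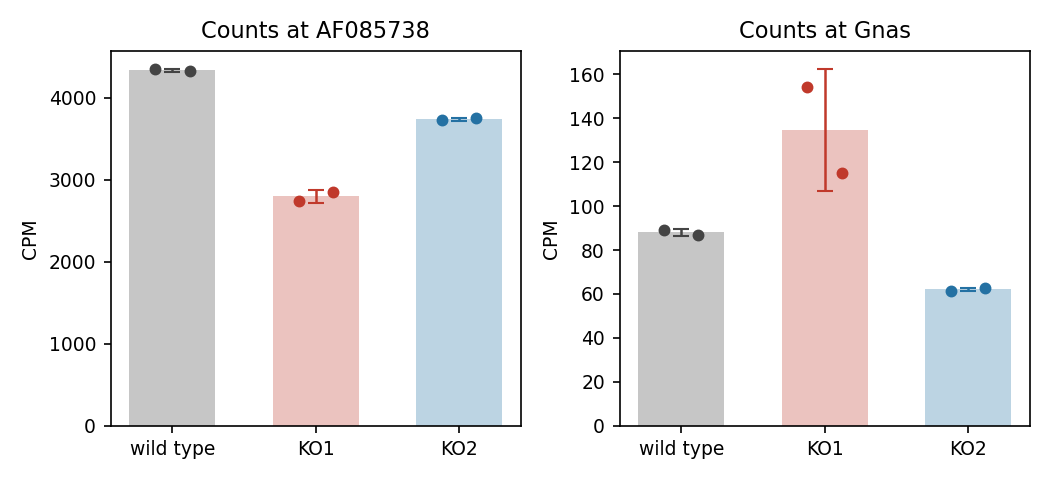
Level in CPM at AF085738 (left) and at Gnas (right), with a point for each library, bars for the mean of 2 libraries and error bars for the SD; both axes start at 0. AF085738 runs from 2742 to 4350 CPM with both knockout lines below wild type, whereas at Gnas both KO1 points (154 and 115 CPM) lie above wild type and both KO2 points (61.5 and 62.7 CPM) below it.

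Counts at Gnas itself were far fewer, and the lines lay on opposite sides of wild type. Wild type libraries held 102 and 102 counts, KO1 libraries 191 and 137, and KO2 libraries 69 and 76. These were 89.2 and 86.7 CPM in wild type, 154 and 115 CPM in KO1, with 61.5 and 62.7 CPM in KO2. Here the order was KO1, wild type, KO2, again with no overlap, and the KO1 libraries stood apart from each other more than those of the other groups.

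Group means at Gnas were 88.0 ± 1.79 CPM (SD, n = 2) in wild type, 135 ± 28.0 for KO1 and 62.1 ± 0.823 for KO2. The log2 fold change was 0.62 ± 0.15 in KO1 (53.3%) and -0.50 ± 0.17 in KO2 (-29.4%), and 1.12 ± 0.16 for KO1 against KO2. Leaving out KO1 replicate 1 gave 0.40 for KO1 and leaving out KO1 replicate 2 gave 0.80. With the lines averaged, the log2 fold change at Gnas was 0.06 ± 0.14, since the lines lay on either side of wild type, and it was -0.05 without KO1 replicate 1. Of the tested genes, 24.7% had both KO1 libraries above both wild type ones and 29.8% had both above those of KO2, while all 4 knockout libraries lay above wild type in 8.48%.

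The median log2 fold change over the other 421 tested genes of chromosome 2 was 0.02 in KO1 and -0.07 in KO2, and it was 0.12 for KO1 against KO2. Measured from those medians, AF085738 stood at -0.65 in KO1 and -0.14 in KO2, and Gnas at 0.60 and -0.43.

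**Figure D3:**
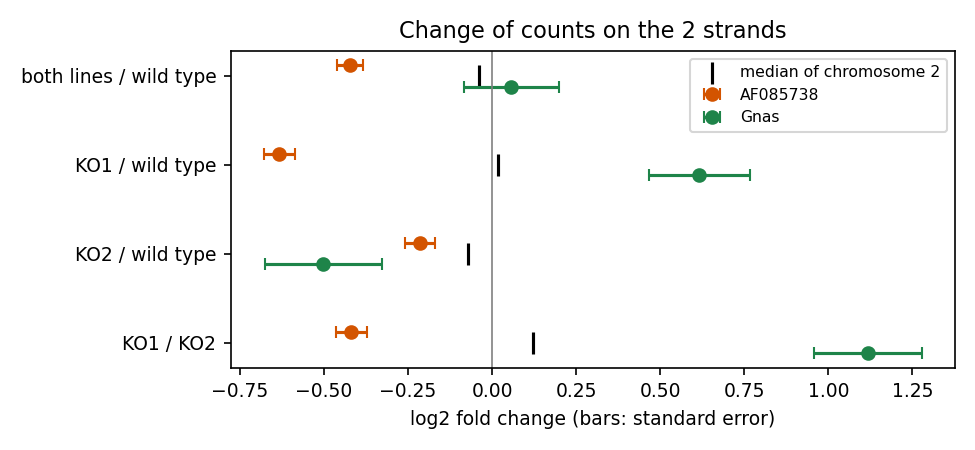
Log2 fold change of AF085738 and Gnas in each of the 4 comparisons (points, with bars for the standard error of the fit), with the median of the other 421 tested genes of chromosome 2 as a black tick. AF085738 lies at -0.63 in KO1 and -0.21 in KO2, and Gnas at 0.62 and -0.50.

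Per kilobase of exon, counts at AF085738 and Gnas differed by orders of magnitude. The lengths cover unlike stretches, since 78.0% of the Gnas exon bases face neither AF085738 nor Nespas. By counts alone, the ratio of AF085738 to Gnas was 48.7 and 49.9 in wild type, 17.8 and 24.8 in KO1, with 60.6 and 59.9 in KO2. AF085738 stood at 2923 ± 12.2 CPM per kb in wild type (SD, n = 2), 1885 ± 51.9 in KO1 and 2519 ± 12.4 in KO2, and Gnas at 7.87 ± 0.160 for wild type, 13.8 and 10.3 in the KO1 libraries, and 5.55 ± 0.0736 for KO2. The ratio of AF085738 to Gnas per kilobase was 367 and 376 for wild type, 134 and 187 in KO1, with 457 and 451 in KO2. It was thus lowest in KO1, where AF085738 was lower and Gnas higher than in wild type.

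As a share of both genes' counts, Gnas made up 2.01% (exact binomial 95% interval 1.64 to 2.44) and 1.97% (1.61 to 2.38) in wild type. It made up 5.33% (4.62 to 6.12) and 3.87% (3.26 to 4.56) in KO1, and 1.62% (1.27 to 2.05) and 1.64% (1.30 to 2.05) in KO2. The intervals cover counting error only. Both KO1 intervals lay above all those of the other libraries, whereas those of KO2 and wild type overlapped. The sum of both genes followed AF085738, at 4426 ± 19.8 CPM in wild type, 2932 ± 49.0 for KO1 and 3800 ± 19.2 for KO2 (SD, n = 2).

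Other overlapping pairs give the share of the weaker strand that these libraries hold in general. There were 113 pairs whose stronger side had at least 1000 counts over the 6 libraries and at least 50% of its exon bases facing the weaker one. Their median share at the weaker gene was 1.35% and 1.56% in wild type, 1.42% and 1.92% in KO1, with 1.66% and 1.23% in KO2. The upper quartile was 3.81% and 3.45% in wild type, 3.65% and 4.12% in KO1, with 3.35% and 3.95% in KO2. The Gnas share lay below that quartile in every library but KO1 replicate 1. Whether shares of this size stand for transcripts of the weaker strand was not tested. The mean share was higher in KO1 than in wild type in 60 of the 113, and in 15 (13.3%) both KO1 libraries lay above all others, as they did at Gnas.

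**Figure D4:**
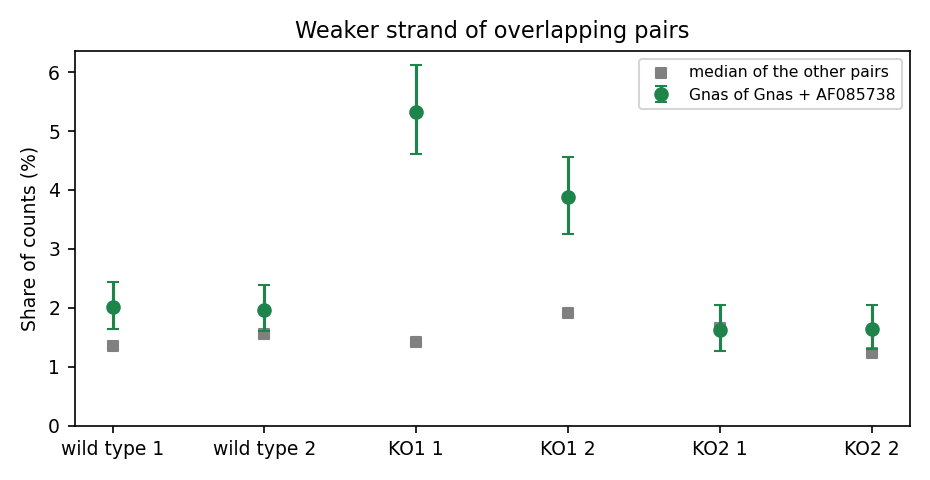
Counts at Gnas as a percentage of those at Gnas and AF085738 in each library (circles, with exact 95% binomial intervals), beside the median weaker-strand share of the 113 other pairs (squares). The KO1 circles, at 5.33% and 3.87%, lie above the rest, which are at 1.62% to 2.01%.

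Nespas, the antisense RNA at the Nesp end of the locus, is the only other gene in the tables whose span overlaps that of Gnas. It held 17 and 11 counts in wild type, 8 and 10 in KO1, with 16 and 3 in KO2. The groups overlapped, and at this depth no difference was detectable: the log2 fold change was -0.70 ± 0.52 in KO1 (adjusted p = 0.473 in edgeR's quasi-likelihood test) and -0.56 ± 0.51 in KO2 (adjusted p = 0.565).

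Of the 46 genes within 1 Mb of Gnas, 4 passed the filter and 1 was called, against a background of 6.62% of all tested genes called in the lines together. That gene was Ctsz, which encodes the lysosomal protease cathepsin Z, at chr2:174252994-174264540 on the minus strand. No gene faces it over at least 50 exon bases, though its end overlaps that of Th1l, at chr2:174241305-174253003 on the plus strand. Ctsz held 150 and 123 counts in wild type, 94 and 83 in KO1, with 131 and 114 in KO2. Ctsz fell in KO1, with a log2 fold change of -0.69 ± 0.16 (adjusted p = 0.00339, edgeR), and in the lines together, with -0.43 ± 0.13 (adjusted p = 0.0460), and was at -0.16 ± 0.15 in KO2 (adjusted p = 0.560). The difference between the lines was -0.53 ± 0.16 (adjusted p = 0.0203). None of the 3 calls held in DESeq2 (adjusted p 0.251 for the lines, 0.0541 for KO1, 0.133 for KO1 against KO2). The KO1 call was lost without wild type replicate 1 or KO1 replicate 2 (adjusted p up to 0.0896). The call in the lines together was lost without wild type replicate 1, either KO1 library or KO2 replicate 2 (adjusted p up to 0.554). That between the lines was lost without either KO1 library or KO2 replicate 1 (up to 0.192). Th1l, a subunit of the negative elongation factor, held 19 and 22 counts in wild type, 26 and 34 in KO1, with 11 and 20 in KO2. Gm14439, a predicted gene, held 34 and 28 counts in wild type, 46 and 32 in KO1, with 22 and 23 in KO2. Neither was called in any comparison.

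The genes whose levels followed AF085738 most closely over the 6 libraries were taken by Pearson's r of log2 CPM, among 2555 genes that averaged at least 20 CPM. Of these, 55 (2.15%) had an r of at least 0.95. The first 5 were AL845466.1, facing Serf2 (r = 0.996), Gm17080, facing the nucleoside transporter gene Slc29a1 (0.995), Gm16263, facing the growth factor gene Fgf10 (0.995), Gm16601, facing the RNA polymerase I subunit gene Polr1a (0.994), and the zinc finger gene Zfp775 (0.993), which faces no annotated gene over at least 50 exon bases. Each had the order wild type, KO2, KO1: group means were 1487, 1360 and 1163 CPM at AL845466.1, 1668, 1423 and 1029 CPM at Gm17080, 37.9, 23.1 and 10.3 CPM at Gm16263. They were 824, 689 and 456 CPM at Gm16601 and 118, 93.8 and 44.5 CPM at Zfp775. Gm16601 and Zfp775 lie on chromosome 6, whose 259 tested genes had a median log2 fold change of -0.42 in KO1 and -0.03 in KO2. The points share the 3 groups and their library sizes, so r describes mainly the 3 group means. Gnas had an r of -0.68 with AF085738.

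The other genes of the Gs and cyclic AMP pathway were read from a list of receptors, G protein subunits, cyclases, phosphodiesterases and effectors. Of 159 listed symbols in the tables, 38 passed the filter. Rises and falls named here and below are those of counts at each gene. Such counts were read as coming from the other strand, not as the level of the named gene's own transcript. In the lines together 3 rose and none fell, in KO1 3 rose and none fell (background 9.79% called, 3.46% higher), and in KO2 3 rose and none fell (8.98% called, 5.01% higher). The median log2 fold change of the 38 was 0.08 in the lines together, 0.12 in KO1 and 0.02 in KO2, beside -0.0092, 0.0051 and -0.01 over all tested genes. The background for higher calls in the lines together was 2.72%.

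Among the receptors, 1 of 4 tested was called. Adrb3, the beta-3 adrenergic receptor, which couples to Gs, held 27 and 20 counts in wild type, 40 and 40 in KO1, with 46 and 49 in KO2. It rose in KO2 by 1.00 ± 0.26 (log2, adjusted p = 0.0101, edgeR) and in the lines together by 0.85 ± 0.23 (adjusted p = 0.0194). Without wild type replicate 2 both calls were lost (adjusted p up to 0.321), and without KO1 replicate 2 that in the lines together.

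Among the G protein alpha subunits, 1 of 4 was called. Gnal encodes Golf, the closest relative of Gs-alpha, which also stimulates adenylate cyclase, and the gene faces Mppe1. It held 86 and 85 counts in wild type, 132 and 126 in KO1, with 147 and 132 in KO2. Every knockout library thus lay above both wild type ones, as in 8.48% of all tested genes. Gnal rose in the lines together by 0.61 ± 0.13 (log2, adjusted p = 0.00318, edgeR), in KO2 by 0.70 ± 0.15 (adjusted p = 0.00216) and in KO1 by 0.53 ± 0.15 (adjusted p = 0.0239). The KO1 call was lost on leaving out any wild type or KO1 library (adjusted p up to 0.121). Of 8 beta and gamma subunits and their relatives, Gnb2l1, a scaffold protein built like a beta subunit, rose in KO2 by 1.09 ± 0.30 (adjusted p = 0.0215, edgeR). It lies on chromosome 11, whose 560 tested genes had a median log2 fold change of 0.40 in KO2. It held 20 and 14 in wild type, 27 and 17 in KO1, with 32 and 41 in KO2, and the call was lost without wild type replicate 2 or KO2 replicate 2 (adjusted p up to 0.206). The 2 chaperones and regulators tested had no call in any comparison.

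Of the 4 adenylate cyclase genes and their partners, Adcy9, which encodes a membrane adenylate cyclase that Gs stimulates, had the largest change on the list. It held 5 and 5 counts in wild type, 83 and 101 in KO1, with 8 and 16 in KO2. With so few counts elsewhere, Adcy9 passed the filter only through KO1, which favours a call of higher counts there. It rose in KO1 by 4.10 ± 0.33 on the log2 scale (adjusted p = 2.27e-10, edgeR), and the call held on leaving out each library. In KO2 its log2 fold change was 1.23 ± 0.52 (adjusted p = 0.151). Between KO1 and KO2 it differed by 2.87 ± 0.27 (adjusted p = 2.34e-09). The lines together gave 2.67 ± 0.40 (adjusted p = 3.13e-05). Adcy3, another membrane adenylate cyclase, held 104 and 83 counts in wild type, 70 and 77 in KO1, with 122 and 104 in KO2. Adcy3 was lower in KO1 than in KO2 by a log2 difference of -0.68 ± 0.17 (adjusted p = 0.00533, edgeR), a call lost without KO1 replicate 1 or KO2 replicate 1 (up to 0.0873).

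Adcy3 and the centromere protein gene Cenpo overlap at their ends on opposite strands. Cenpo held 276 and 247 counts in wild type, 270 and 261 in KO1, with 481 and 526 in KO2. The KO2 libraries stood above the other 4. Of all tested genes, 24.6% had both KO2 libraries above both wild type ones, and 28.8% had both above those of KO1. Cenpo rose in KO2 by 0.93 ± 0.09 (log2, adjusted p = 6.74e-09, edgeR), and the difference between the lines was -0.98 ± 0.09 (adjusted p = 1.17e-09). Counts on both strands of this pair were higher in KO2 than in KO1, unlike those of Gnas and AF085738, which lay in opposite orders between the lines.

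Of the 4 phosphodiesterases, which break down cyclic nucleotides, Pde8a rose in KO1 by 1.05 ± 0.32 (log2, adjusted p = 0.0326, edgeR), from 13 and 14 counts in wild type to 26 and 33. KO2 held 15 and 18. The call was lost without either wild type library or KO1 replicate 2 (up to 0.271). Pde1b, with 9 and 11 counts in wild type, 19 and 29 in KO1, 7 and 5 in KO2, was higher in KO1 than in KO2 by 1.92 ± 0.44 (adjusted p = 0.00185, edgeR), a call lost without KO1 replicate 2 (0.0619). The effector Hcn3, a cation channel of a family gated by cyclic nucleotides, faces Pklr. It was higher in KO1 than in KO2 by 1.71 ± 0.46 (adjusted p = 0.00830, edgeR), lost without KO1 replicate 2 or KO2 replicate 2 (up to 0.0801). Neither the 2 protein kinase A genes nor the 4 anchoring or 4 transcription genes had a call in any comparison. Hcn3 held 8 and 14 counts in wild type, 19 and 19 in KO1, with 6 and 5 in KO2. Between KO1 and KO2, 3 listed genes were higher and 1 lower, where 19.3% of all tested genes were called, 7.93% as higher. The 3 higher ones, Adcy9, Pde1b and Hcn3, passed the filter only through KO1, so nothing is read from this count. By DESeq2 the calls of Adrb3 in KO2 (adjusted p = 0.125), Gnb2l1 in KO2 (0.202), Gnal in KO1 (0.214), Pde8a in KO1 (0.350) and Adcy3 between the lines (0.0615) were lost, and DESeq2 gave no adjusted p for Adrb3 and Adcy9 in the lines together, Pde1b or Hcn3.

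**Figure D5:**
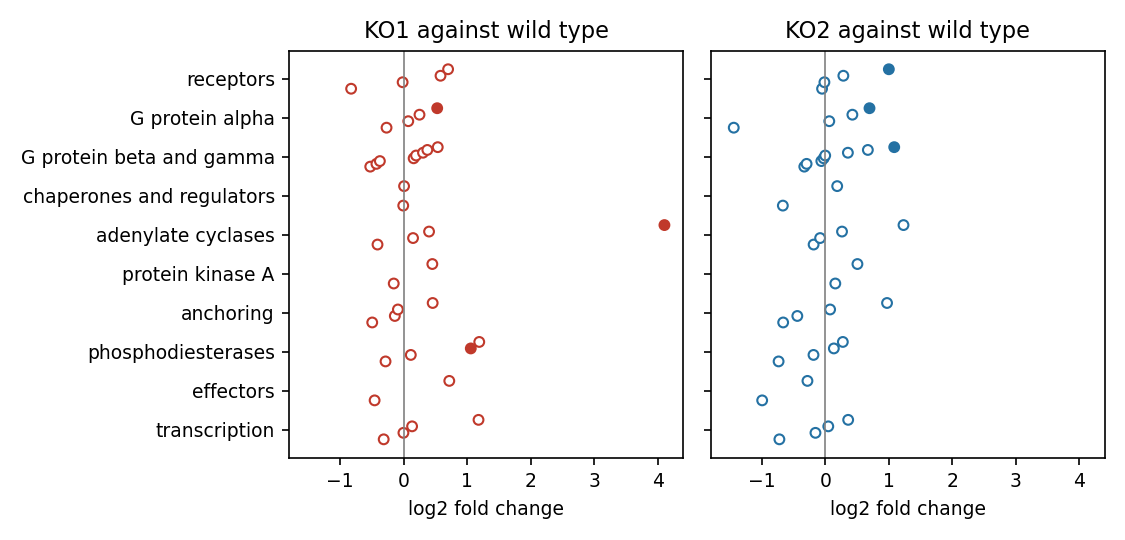
Log2 fold change of the 38 tested Gs and cyclic AMP pathway genes in KO1 (left) and KO2 (right) against wild type, grouped by role; filled points were called by adjusted p and open points were not. Adcy9 lies at 4.10 in KO1, and 3 genes are filled in each line.

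Matched by the gene facing them, 9 of 20 counted genes passed the filter: Tln1, Ppt1, 4930597O21Rik, Ppp2r1b, Gm11696, Cenpo, Chtf18, Gm6225 and Bscl2. In the lines together 1 rose, Cenpo, by 0.44 ± 0.08 (log2, adjusted p = 6.17e-04, edgeR), though in KO1 alone it stood at -0.05 ± 0.10. In KO1 2 fell: 4930597O21Rik, facing the gamma subunit gene Gng12, at -1.98 ± 0.55 (adjusted p = 0.0191), from 15 and 12 counts to 3 and 4, and Ppp2r1b, facing the kinase gene Sik2, at -0.34 ± 0.11 (adjusted p = 0.0340). 4930597O21Rik lies on chromosome 6, whose 259 tested genes had a median of -0.42 in KO1. The call of 4930597O21Rik was lost without wild type replicate 1 or either KO1 library (up to 0.167), and that of Ppp2r1b without any wild type or KO1 library (up to 0.254) and in DESeq2 (0.297). In KO2 Cenpo alone was called. Between KO1 and KO2, Cenpo, Ppt1 (facing Cap1, a cyclase-associated protein gene) and 4930597O21Rik were lower in KO1. Of all tested genes, 2.72% were called higher in the lines together and 5.01% higher in KO2. The share called lower was 6.34% in KO1 against wild type and 11.4% in KO1 against KO2.

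Other imprinted genes were read from a list of 72 symbols in the tables, of which 16 passed the filter. In the lines together 1 was called higher and 2 lower, where 2.72% and 3.89% of all tested genes were. The 2 lower ones, Copg2 and Rtl1, were not called lower in both lines. Their log2 fold changes in KO1 were -0.0015 and 0.42. In KO1 4 were higher and none lower (3.46% and 6.34% of all), and in KO2 1 was higher and 2 lower (5.01% and 3.97%). Their median log2 fold change was 0.24 in the lines together, 0.36 in KO1 and 0.14 in KO2, beside -0.0092, 0.0051 and -0.01 over all tested genes. Grb10, an adaptor of the insulin receptor imprinted on chromosome 11, was higher in both lines, at 1.73 ± 0.26 in KO1 (adjusted p = 2.38e-05, edgeR) and 1.98 ± 0.25 in KO2 (adjusted p = 1.27e-06), with 18 and 26 counts in wild type, 61 and 92 in KO1, with 76 and 100 in KO2. The median of its chromosome was 0.40 in KO2 and 0.06 in KO1.

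Copg2, a coat protein gene that faces Mest, had 1070 and 1095 counts in wild type, 1161 and 1105 in KO1, with 574 and 638 in KO2. It fell in KO2, with a log2 fold change of -0.85 ± 0.06 (adjusted p = 6.02e-11, edgeR). Rtl1, a retrotransposon-derived gene of the placenta, faces Mir433. It held 515 and 499 counts in wild type, 791 and 628 in KO1, with 222 and 234 in KO2. Like Gnas, it lay above wild type in KO1, by 0.42 ± 0.08 (log2, adjusted p = 8.82e-04, edgeR), and below it in KO2, by a log2 change of -1.16 ± 0.10 (adjusted p = 6.57e-10). The KO1 call of Rtl1 was lost without KO1 replicate 1 (0.0979). H13, a signal peptide peptidase on chromosome 2, faces Gm17559. It rose in KO1 by 0.73 ± 0.22 (adjusted p = 0.0285, edgeR), lost without any wild type or KO1 library (up to 0.189) and in DESeq2 (0.322). Commd1, which faces and hosts the imprinted Zrsr1, rose in KO1 by 0.67 ± 0.12 (adjusted p = 3.73e-04), from 159 and 145 counts to 276 and 230.

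Matched by the gene facing them, 9 of 13 counted genes passed the filter, 4 of them (Copg2, Mest, Commd1 and Zrsr1) already counted above because both genes of the pair are listed. None rose and 3 fell in the lines together (6.62% of all tested genes called), 1 rose and 1 fell in KO1 (9.79%), and 2 fell in KO2 (8.98%). None of the 3 was called lower in both lines. AL672259.1, facing Nnat on chromosome 2, held 36 and 48 counts in wild type, 6 and 4 in KO1, with 56 and 50 in KO2. It fell in KO1, with a log2 fold change of -3.10 ± 0.38 (adjusted p = 8.03e-07, edgeR). Gm17639, facing the non-coding RNA gene Meg3, held 250 and 257 counts in wild type, 297 and 241 in KO1, with 165 and 162 in KO2. It fell in KO2 (log2 fold change -0.64 ± 0.12, adjusted p = 2.93e-04, edgeR) and in the lines together (-0.31 ± 0.10, adjusted p = 0.0457), the latter lost without either wild type library, KO1 replicate 2 or KO2 replicate 2 (up to 0.185) and in DESeq2 (0.255).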

How the data were processed

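For each of 6 RNA libraries a table of raw counts was deposited. The authors ran featureCounts 2.0.1 in paired mode on exons grouped by gene, with its strand setting at 1, over GENCODE mouse version 1 (mm9), per the file headers. Trim Galore 0.6.4 and STAR 2.5.4b appear in the submitters' processing notes; strand marking by the kit is not given in the sources here. All gene spans equalled that annotation.

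Counts were fitted in R 4.3.3 with edgeR 4.0.16 (filterByExpr with a minimum of 10, TMM, robust quasi-likelihood, 3 group means, no replicate term, 3 residual degrees of freedom). A gene was called at a Benjamini-Hochberg adjusted p under 0.05 over all 5034 tested genes. CPM use effective library sizes, and every log2 fold change carries its standard error. Exon overlaps, splice letters and strand shares were computed in Python 3.11.15. DESeq2 1.42.0, other scalings and filters, a replicate block and leaving out libraries were alternatives.

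The members and lists were chosen with earlier results of these data known. Named were both members, genes overlapping Gnas, tested neighbours within 1 Mb, up to 6 called members of each list (Gs and cyclic AMP, imprinted) per comparison, and the 5 genes most like AF085738. Matching lists by the facing gene is shown beside matching by own symbol. Pluripotency and fibroblast markers are given as sums.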

Additional observations from a re-analysis of the deposited data

Results flagged for a closer look

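Several genes differed between the knockout lines, each measured against the same wild type libraries. Gnas was higher than wild type in both KO1 libraries and lower in both KO2 libraries, with a log2 difference between KO1 and KO2 of 1.12, and this difference was not tested. The other values below are log2 differences of KO1 against KO2 called by edgeR's quasi-likelihood test at an adjusted p under 0.05. Such calls were common, at 971 of the 5034 tested genes (19.3%), with 7.93% called higher in KO1 and 11.4% lower. In the Gs and cyclic AMP pathway, Adcy9 (2.87), Pde1b (1.92) and Hcn3 (1.71) were higher in KO1, and Adcy3 (-0.68) was lower. Adcy9, Pde1b and Hcn3 passed the filter on low counts only through KO1, so nothing is read from their number. Among genes facing a pathway gene, 4930597O21Rik (-1.67), Cenpo (-0.98) and Ppt1 (-0.33) were lower in KO1. The call of 4930597O21Rik was lost on leaving out wild type replicate 1 or any of the KO1 or KO2 libraries (adjusted p up to 0.203), and that of Ppt1 without KO1 replicate 1 (0.114).

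Among imprinted genes and genes facing one, Rtl1 (1.58), H13 (0.99), Commd1 (0.94), Copg2 (0.85), Gm17639 (0.66) and Plagl1 (0.62) were higher in KO1, and AL672259.1 (-3.43) and Mest (-0.69) were lower. The call of Mest was lost without either KO1 library or KO2 replicate 2 (up to 0.459), and that of Plagl1 without any KO1 or KO2 library (up to 0.174). By DESeq2 the calls of Adcy3 (adjusted p = 0.0615), H13 (0.0615), Ppt1 (0.0787), Ctsz (0.133), Mest (0.156) and Plagl1 (0.242) were lost. Among the neighbours of Gnas, Ctsz was lower in KO1 (-0.53). The causes of these differences were not tested.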

How the results depend on the processing

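No called result changed direction. The log2 fold change of Gnas in the lines together, 0.06 with a standard error of 0.14, changed sign without KO1 replicate 1 and ranged from -0.05 to 0.14 on leaving out each library. At the Gnas locus, AF085738 moved by more than the SD between libraries when centred on chromosome 2 (log2 -0.38 in the lines together, -0.14 in KO2, -0.54 between the lines), with upper-quartile scaling (-0.60 in KO1, -0.39 between the lines) and without the filter (-0.45 between the lines). Leaving out each library gave AF085738 -0.45 to -0.40 in the lines together, -0.67 to -0.59 in KO1, -0.22 to -0.19 in KO2 and -0.45 to -0.38 between the lines, and gave Gnas 0.40 to 0.80 in KO1 and 0.90 to 1.31 between the lines. DESeq2 called fewer genes: 113 in the lines together, 196 in KO1, 170 in KO2 and 402 between the lines, against 333, 493, 452 and 971 in edgeR. Its pathway counts were 1 in each comparison by own symbol, and by facing gene 0 in KO1 and 1 between the lines. Its imprinted counts were 3 between the lines by own symbol and 1 in the lines together by facing gene, and its neighbour count was 0 in the lines together, KO1 and KO1 against KO2. Treating the knockout libraries as a single group, an alternative chosen after seeing the data, left 6 genes called, with standard errors of 0.13 for AF085738 and 0.38 for Gnas. Without the filter 1 pathway gene was called in KO1. Upper-quartile scaling left 0 neighbours called in the lines together and 2 between the lines, and 1 pathway gene by facing gene in KO1. Leaving out each library gave 213 to 362 genes called in the lines together, 280 to 591 in KO1 and 561 to 1065 between the lines. It gave 1 to 4 pathway genes in KO1, 1 to 3 in KO2 and 2 to 5 between the lines, and by facing gene 0 to 2 in KO1 and 1 to 3 between the lines. It gave 2 to 4 imprinted genes in KO1, and 0 to 1 neighbours in the lines together and in KO1 and 0 to 2 between the lines. The causes were not tested.

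The replicate numbers did not pair the samples, since deviations of same-numbered libraries correlated at 0.02 at most. With the replicate block, 321, 482, 416 and 935 genes were called in the 4 comparisons, and 2 neighbours between KO1 and KO2. With 23 to 27 counts at the median tested gene, depth limits what can be detected at Nespas and the less counted pathway genes.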
